A study of Mus musculus with 4 samples.

Results

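The genes of mitochondrial fusion and fission were examined in white adipose tissue (WAT) that lacks FSP27, a protein of the lipid droplet surface in fat cells. The members were 10 genes: the fusion genes Mfn1, Mfn2, Opa1 and Oma1, the fission genes Dnm1l, Fis1, Mff and Mtfr1, and the mitophagy receptors Bnip3 and Bnip3l. Oma1 is counted with the fusion genes here, although it encodes a protease that cuts OPA1 and not a fusion protein. All 22 probe sets annotated to these 10 genes were taken, of 22690 probe sets on the array, and 9 of the 10 genes could be read from a probe set of their own among the 12393 genes with one. Read from the brightest probe set of each gene, Opa1 had the largest difference between the genotypes among the fusion and fission genes, with a mean signal 1.78-fold higher in FSP27-deficient WAT. It was the 1 member of the 9 that passed the test (adjusted p under 0.05), which 12.3% of all genes tested did. The other fusion genes and all 4 fission genes did not pass it. The call of Opa1 was close to the threshold (limma adjusted p = 0.042) and was lost in 8 of 14 alternative ways of processing.

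The arrays held RNA from the gonadal WAT of male C57BL/6J mice 3 months of age. The groups were Fsp27 knockout mice, here called FSP27-deficient, and wild-type mice. RNA of 5 mice of each genotype was combined into 1 pool, and each pool was hybridized in duplicate to Affymetrix mouse arrays, which makes 4 arrays. How the Fsp27 allele was made and whether the mice were littermates is not stated by the labels. Since the duplicates came from 1 pool, p-values speak of repeat hybridizations only and say nothing of how mice vary. The smallest p that an exact two-sided permutation test can reach with 4 arrays is 0.333.

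Cidec, which encodes FSP27, had signals of 8564 and 8949 in FSP27-deficient WAT and of 20491 and 18255 in wild-type WAT, 2.21-fold lower in the knockout (log2 change -1.14, SE 0.15, limma adjusted p = 5.7e-04). Since its probe set may lie outside the deletion, this level alone is no check of the genotype. Median signals were 165 to 181 on the FSP27-deficient and 172 to 193 on the wild-type arrays. The tissue gave high signals for white adipocyte genes, with summed signals of 169162 to 182286 in FSP27-deficient and 140580 to 161154 in wild-type WAT, and 1 of 6 such genes, Lep, was called lower. Markers of other cells moved with the genotype. Of brown adipocyte genes 3 of 4 tested were called higher (summed signal 16663 to 23297 against 827 to 1216), of macrophage genes 5 of 7 were called lower (5871 to 7142 against 14978 to 16663), of fibroblast genes 4 of 6 (23243 to 27087 against 42739 to 43377), of mesothelial genes 2 of 4 (1006 to 1410 against 3149 to 3597), and of endothelial genes 1 of 6 (3992 to 4384 against 5345 to 6051). Cox8b alone made most of the brown adipocyte sum in FSP27-deficient WAT (13491 and 19539). The signal of Ucp1 was too low to be tested (157 and 31.3 against 18.9 and 12.9), and Ppargc1a was not called (209 and 161 against 205 and 110). Skeletal muscle genes gave 0 calls of 1 tested and epididymis genes 0 of 2, at summed signals of at most 1107, so that these counts say little. Of the 8 skeletal muscle genes with a probe set, the arrays lay apart for 2 higher and 1 lower in FSP27-deficient WAT. In bulk tissue fewer cells of a type and less RNA per cell cannot be told apart, and the part of these cells in any difference given here was not tested.

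Mitochondria join and divide continually. Fusion needs the mitofusins MFN1 and MFN2, GTPases that tether and merge the outer membranes, and OPA1, a GTPase of the inner membrane that also holds the cristae in shape and is cut by the protease OMA1 under stress. Fission needs DRP1, the GTPase encoded by Dnm1l, which is recruited from the cytosol by outer membrane proteins such as MFF and FIS1 and constricts the organelle. BNIP3 and BNIP3L (NIX) are outer membrane receptors that deliver mitochondria to autophagosomes. Brown adipocytes are packed with mitochondria, whereas the white adipocyte has few, placed in a thin rim around its lipid droplet.

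The promoters of the members were read for the core of the motif of NRF1, a transcription factor known for driving nuclear genes of mitochondrial proteins. The 8-base core CGCANGCG (N is any base, on either strand) was sought from 250 bases before to 50 bases after each RefSeq gene start in GRCm38.p6. It was present in 3 of the 8 members with a promoter in that table, Opa1, Oma1 and Bnip3, and in 9.22% of 27025 genes, or 8.21% of 32851 promoters. A match is a description of these letters and not a site of binding. The stretches that hold it are shown 5′ to 3′ along the strand of the gene, with the match in capitals, because Opa1 is the member that passed the test and the other matches belong to genes that did not. They lie at chr16:29579256-29579303 (plus strand) for Opa1, at chr4:103313804-103313845 (plus strand) for Oma1 and at chr7:138909515-138909645 (minus strand) for Bnip3, whose stretch holds 2 matches.
Opa1: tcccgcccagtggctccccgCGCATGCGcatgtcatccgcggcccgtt
Oma1: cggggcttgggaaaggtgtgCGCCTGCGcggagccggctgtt
Bnip3: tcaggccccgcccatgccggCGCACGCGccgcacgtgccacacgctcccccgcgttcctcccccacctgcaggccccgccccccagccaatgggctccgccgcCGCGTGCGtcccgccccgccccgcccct
The first match begins 58 bases before the start of Opa1, 22 before that of Oma1 and 119 before that of Bnip3. Among the 3 genes with the core, Opa1 rose while Oma1 and Bnip3 did not pass the test.

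Opa1 was read from 2 probe sets, both brighter on average in FSP27-deficient WAT. The brighter, 1449214_a_at, gave signals of 639 and 585 in FSP27-deficient WAT and of 355 and 331 in wild-type WAT. Both FSP27-deficient arrays lay well above both wild-type arrays, and the duplicates of each genotype lay close together. On log2 of the signal plus 16, the scale of every log2 change given here (FSP27-deficient minus wild-type), the change was 0.81 (SE 0.23, 95% interval 0.30 to 1.32, limma adjusted p = 0.042 over the 8522 genes tested). The second probe set, 1418768_at, gave 329 and 266 against 174 and 249. Its FSP27-deficient arrays were also both above, by a narrow margin, with a log2 change of 0.48 (95% interval -0.23 to 1.18, adjusted p = 0.42 across all probe sets). The call of Opa1 stood close to the threshold. It was lost when either array of either genotype was left out (adjusted p from 0.053 to 0.23 from limma), without the filter on low signals (0.090), with the mean of its probe sets in place of the brighter (log2 change 0.64, adjusted p = 0.13) and when every probe set was tested on its own (0.052), while the log2 change stayed between 0.64 and 0.92 under all 14 alternatives.

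**Figure D1:**
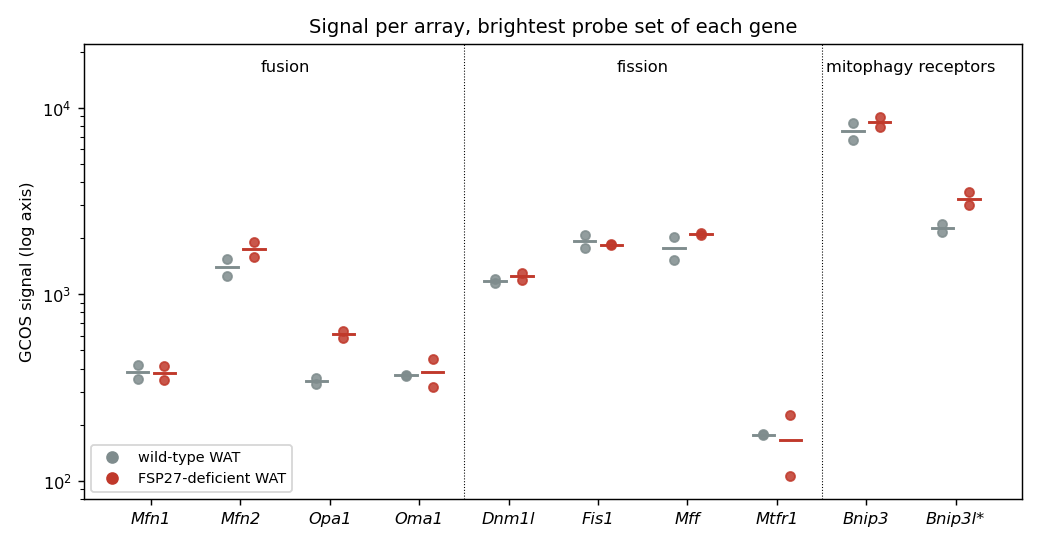
GCOS signal (log axis) on each array for the brightest probe set of each member, with wild-type WAT in grey and FSP27-deficient WAT in red. Points are arrays (2 per genotype, duplicates of 1 pool) and bars are their mean; the asterisk marks Bnip3l, whose probe sets are annotated to a pseudogene as well. The genotypes lie farthest apart for Opa1 (639 and 585 against 355 and 331) and overlap for Mfn1, Oma1, Dnm1l, Fis1, Mtfr1 and Bnip3.

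The mitofusins showed no called change. Mfn2 gave 1919 and 1585 in FSP27-deficient WAT and 1255 and 1542 in wild-type WAT. Its genotypes did not overlap, but the nearest arrays differed by less than the duplicates of either genotype, and the log2 change was 0.32 (SE 0.20, 95% interval -0.12 to 0.76, limma adjusted p = 0.36). Mfn1 gave 414 and 345 against 419.7 and 351, the FSP27-deficient arrays falling within a few units of the wild-type ones (log2 change -0.02, 95% interval -0.58 to 0.54, adjusted p = 0.98). A further Mfn1 probe set gave 357 and 346 against 288 and 310.2, with a log2 change of 0.22 (adjusted p = 0.68 across all probe sets). The mitofusins each had 1 more probe set below the signal filter (a mean of at least 100), whose duplicates differed severalfold in at least 1 genotype, with signals of 15.2 to 117 for Mfn1 and of 12.3 to 117 for Mfn2, so that these carry no usable level. Oma1, the protease that cuts OPA1, gave 319 and 449 against 371 and 367. Its FSP27-deficient arrays lay on either side of the wild-type arrays, and the log2 change was 0.04 (SE 0.27, 95% interval -0.54 to 0.61, adjusted p = 0.96).

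Among the fission genes, Dnm1l gave signals of 1303 and 1201 in FSP27-deficient WAT and of 1213 and 1153 in wild-type WAT from its brightest probe set. The genotypes overlapped, with a log2 change of 0.08 (SE 0.19, 95% interval -0.34 to 0.50, limma adjusted p = 0.85). Its next probe set, 1428087_at, gave 985 and 833 against 698 and 650.0, both FSP27-deficient arrays above, with a log2 change of 0.42 (95% interval -0.06 to 0.89, adjusted p = 0.28 across all probe sets). The probe sets of Dnm1l thus gave unlike sizes for 1 gene, neither past the threshold, and its other 2 probe sets lay below the signal filter with signals of 4.57 to 146.

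Fis1 had the closest duplicates of the fission genes in FSP27-deficient WAT, 1854 and 1845, and these lay between the wild-type arrays at 2085 and 1777 (log2 change -0.06, 95% interval -0.46 to 0.35, limma adjusted p = 0.89). Mff gave 2122 and 2073 against 2034 and 1528 from its brightest probe set, so that the genotypes did not overlap but were separated by less than the spread of the wild-type arrays (log2 change 0.25, 95% interval -0.18 to 0.68, adjusted p = 0.49). That probe set has the suffix x_at, by which Affymetrix marks probes that may match other sequences. A second Mff probe set gave 795 and 591 against 497 and 565 (log2 change 0.36, adjusted p = 0.41 across all probe sets). The third, which also has the suffix x_at, gave 185 and 88.9 against 88.7 and 76.4 (log2 change 0.56, 95% interval -0.84 to 1.96). In it 1 FSP27-deficient array stood apart and the other lay beside the wild-type arrays.

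Mtfr1, which encodes a mitochondrial protein named for its effect on fission, lay closest to the signal filter and had the widest interval of the 9 genes. Its brighter probe set gave 107 and 226 on the FSP27-deficient arrays around wild-type signals of 175 and 179, with a log2 change of -0.16 (SE 0.45, 95% interval -1.14 to 0.82, limma adjusted p = 0.87). The other gave 102 and 83.5 against 128 and 229, with both FSP27-deficient arrays below and a log2 change of -0.79 (95% interval -1.96 to 0.37, adjusted p = 0.41 across all probe sets).

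The mitophagy receptor Bnip3 gave 8978 and 7859.6 in FSP27-deficient WAT and 6716 and 8305 in wild-type WAT. The genotypes overlapped, with a log2 change of 0.17 (SE 0.17, 95% interval -0.20 to 0.54, limma adjusted p = 0.60). Bnip3l had 3 probe sets, each annotated to Bnip3l and to the pseudogene Bnip3l-ps, so that none could be assigned to 1 gene and they were tested only among all probe sets. The brightest, 1416922_a_at, gave 2998 and 3525 against 2375 and 2162, both FSP27-deficient arrays above, with a log2 change of 0.52 (SE 0.19, 95% interval 0.11 to 0.92, adjusted p = 0.11 across all probe sets). It crossed the threshold without FSP27-deficient replicate 1 (log2 change 0.63, adjusted p = 0.0498). The other probe sets gave 748 and 1005 against 969 and 1036 (log2 change -0.21, adjusted p = 0.64) and 706 and 746 against 712 and 709 (log2 change 0.03, adjusted p = 0.96). The 3 probe sets of Bnip3l therefore did not share a direction.

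**Figure D2:**
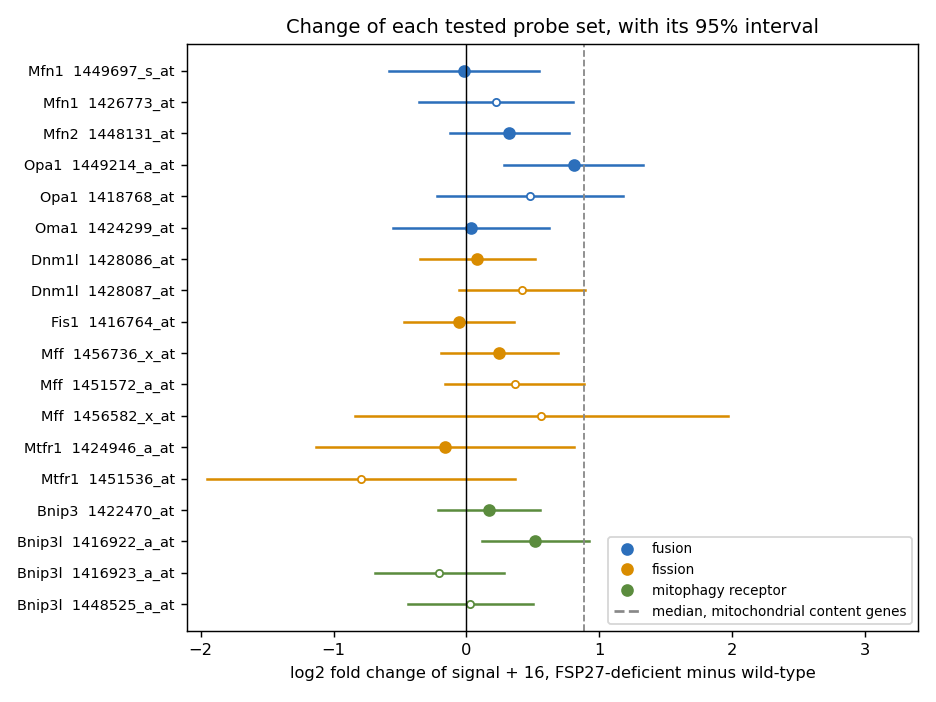
Log2 change of signal + 16, FSP27-deficient minus wild-type, of the 18 member probe sets with a mean signal of at least 100; lines are 95% intervals of the fit over all probe sets, filled points are the brightest probe set of a gene and open points the others, coloured by fusion, fission or mitophagy receptor. The interval excludes 0 for the brighter Opa1 probe set (0.81) and the brightest Bnip3l probe set (0.52). Neither passed the adjusted threshold in this fit, and at 1 probe set per gene 2157 of all 8522 genes had an unadjusted limma p under 0.05. The dashed line is the median of the mitochondrial content genes (0.89).

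The count of members called was close to that of all genes. At 1 probe set per gene, 1 of 9 members was called higher and 0 lower, against 12.3% of all 8522 genes tested called in either direction, 5.79% higher and 6.51% lower (limma, adjusted p under 0.05). When every probe set was tested on its own, 0 of 18 member probe sets were called, against 10.2% of 14360. Of the members the brighter Opa1 and brightest Bnip3l probe sets had an interval that excluded 0, which is a criterion without adjustment. At 1 probe set per gene, 2157 of all 8522 genes had an unadjusted limma p under 0.05, so that such intervals were common. The arrays of the genotypes did not overlap for 3 of the 9, Mfn2, Opa1 and Mff, all higher in FSP27-deficient WAT, against 54.1% of all genes in either direction. The median log2 change was 0.08 over the 9 members and -0.08 over all genes tested, with 6 of 9 members and 43.1% of all genes above 0. Mfn1 and Fis1, just below 0, were just above it after each array was centred on its median (0.05 and 0.01).

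Fusion was then set against fission. The fusion set includes Oma1, whose protease cuts OPA1, so that the mean and median of the set are not of fusion proteins alone. The median log2 change was 0.18 over the 4 fusion genes and 0.01 over the 4 fission genes, a difference of 0.17. The difference was 0.053 without wild-type replicate 1, 0.10 without FSP27-deficient replicate 1, 0.30 without wild-type replicate 2 and 0.075 when the probe sets of a gene were averaged, above 0 in each. Set to a wild-type mean of 0, the mean log2 level of the fusion genes was 0.31 and 0.26 in FSP27-deficient WAT and 0.01 and -0.01 in wild-type WAT, while that of the fission genes was -0.08 and 0.13 against 0.09 and -0.09. The mean of the fusion genes thus lay apart by genotype and that of the fission genes overlapped. Gene by gene, the arrays did not overlap for 2 of the 4 fusion genes, Mfn2 and Opa1, and for 1 of the 4 fission genes, Mff. Of all genes tested 54.1% did not overlap, in either direction. Fusion minus fission was 0.39 and 0.13 in FSP27-deficient WAT and -0.08 and 0.08 in wild-type WAT. The lower FSP27-deficient array was nearer to a wild-type array than to its own duplicate. Without Opa1 the same difference was 0.20 and -0.03 against -0.09 and 0.09, and the genotypes overlapped, although the mean of the other 3 fusion genes alone still lay apart at 0.12 and 0.10 against -0.0048 and 0.0048. Of these 3 genes only Mfn2 lay apart (log2 change 0.32, not called), while Mfn1 (-0.02) and Oma1 (0.04) overlapped. The wild-type duplicates of Mfn1 and Mfn2 deviated in opposite directions, which brings the wild-type means of the 3 close together. Between single genes, Opa1 minus Dnm1l was the steadiest within a genotype, 0.73 and 0.72 for FSP27-deficient WAT against 0.01 and -0.01. Opa1 minus Fis1 was 0.92 and 0.80 against -0.07 and 0.07, and Opa1 minus Mff was 0.60 and 0.51 against -0.16 and 0.16, with the genotypes apart in each. Opa1 minus Mfn2 was 0.41 and 0.56 against 0.20 and -0.20, apart as well, with a gap to the nearest wild-type array that was smaller than the distance between the wild-type arrays. Opa1 was taken as the member with the largest change, so these differences follow from that choice and add no support. They also rest on the brightest probe sets. From 1418768_at the log2 change of Opa1 was 0.48, and from 1428087_at that of Dnm1l was 0.42.

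The wider machinery was counted over 5 lists of 60 genes, of which 49 had a probe set and 47 were tested. Of these, 8 were called higher and 0 lower, against 5.79% and 6.51% of all genes tested. Above 0 were 37 of the 47, against 43.1% of all genes, with a median log2 change of 0.26. The calls were unevenly spread, with 4 in the 9 tested partners of fusion and OPA1 processing, 1 in the 6 partners of fission, 1 in 10 mitophagy genes, 2 in 18 genes of the autophagy core and 0 in 4 genes of mitochondrial transport (Rhot1, Rhot2, Trak1 and Kif5b). The uneven spread was not tested. Without wild-type replicate 1 the 8 calls became 2, and without wild-type replicate 2 they became 1.

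All 9 tested partners of fusion and OPA1 processing were above 0, with a median log2 change of 0.52. Afg3l2, a subunit of the m-AAA protease of the inner membrane, gave 985 and 956 in FSP27-deficient WAT and 508 and 478 in wild-type WAT (log2 change 0.96, SE 0.21, limma adjusted p = 0.012). The arrays of each genotype almost coincided and the genotypes lay well apart. Phb2, a prohibitin, part of the inner membrane scaffold that protects long OPA1, gave 2417 and 2621 against 1345 and 1521 (log2 change 0.81, SE 0.19, adjusted p = 0.013). Opa3, a mitochondrial protein whose human gene is mutated in a form of optic atrophy, gave 612 and 658 against 310.3 and 403 (log2 change 0.81, SE 0.24, adjusted p = 0.047). Miga2, an outer membrane protein that promotes fusion, gave 3056 and 2900.4 against 1949.8 and 1495 (log2 change 0.80, adjusted p = 0.018); it was the remaining called gene of the list and was named after its value was seen. The proteases that cut OPA1 or its regulators did not pass the test apart from Afg3l2, with log2 changes of 0.39 for Yme1l1, 0.43 for Spg7, 0.52 for Parl and 0.04 for the member Oma1.

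Among the partners of fission, Mtfp1, an inner membrane protein whose level promotes division, rose 3.12-fold, the largest fold among the genes of the 5 lists that passed the filter. It gave 427 and 501 in FSP27-deficient WAT and 143 and 154 in wild-type WAT (log2 change 1.54, SE 0.29, limma adjusted p = 0.0052), and the call held under 12 of 14 alternatives. The other 5 tested genes did not pass, among them Marchf5, a ubiquitin ligase of the outer membrane, at 5616 and 5733 against 3727 and 4198 (log2 change 0.52), and Dnm2, a dynamin of the plasma membrane that has been tied to division, at 655 and 795 against 784 and 715 (log2 change -0.05).

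Of the mitophagy genes, Park7, which encodes the redox protein DJ-1, gave 9163 and 9506 against 5905 and 6660 (log2 change 0.57, SE 0.16, limma adjusted p = 0.035). Pink1, the kinase that marks damaged mitochondria, gave 1699 and 1592 against 1885 and 1724 (log2 change -0.13) and Fundc1, an outer membrane receptor, 668 and 774 against 1051 and 991 (log2 change -0.50), neither past the threshold. In the autophagy core, Atg7, the enzyme that activates ATG12 and the LC3 family for conjugation, gave 1199 and 808 against 555 and 516 (log2 change 0.86, SE 0.24, adjusted p = 0.035), its FSP27-deficient arrays lying far from each other. Gabarapl1, an LC3 relative, gave 3915 and 4290.1 against 2550.4 and 2714 (log2 change 0.64, SE 0.17, adjusted p = 0.030). Each of Atg7, Gabarapl1, Park7, Opa3, Phb2 and Afg3l2 lost its call under some alternative. Averaging the probe sets of a gene lowered the log2 change of Atg7 to 0.45 and that of Gabarapl1 to 0.38, and quantile normalization lowered that of Park7 to 0.35, while the lowest values were 0.63 for Opa3, 0.72 for Phb2 and 0.75 for Afg3l2.

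**Figure D3:**
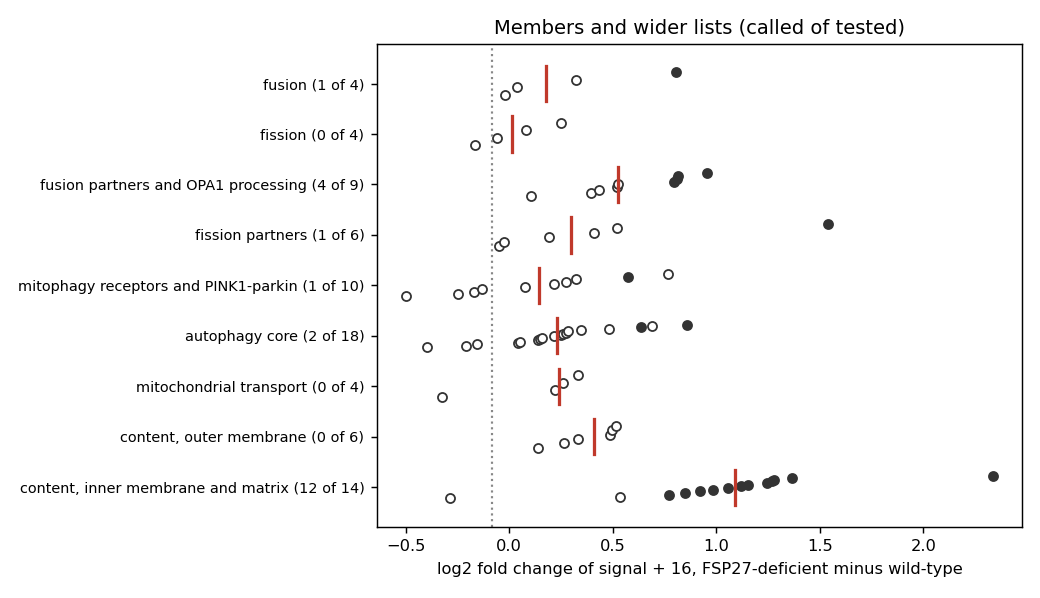
Log2 change of signal + 16, FSP27-deficient minus wild-type, of each tested gene in the fusion and fission members, the 5 wider lists and the mitochondrial content genes; filled points passed the adjusted threshold of 0.05, red bars are medians, the dotted line is the median of all genes tested (-0.08), and the counts are called of tested genes. The medians are 0.18 for fusion, 0.01 for fission, 0.52 for fusion partners and 1.09 for content genes of the inner membrane and matrix.

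Other mitochondrial transcripts gave the scale for these changes. Of 20 genes of respiration, import and structure, 12 were called higher and 0 lower (5.79% and 6.51% of all genes tested), with a median log2 change of 0.89. Cs, citrate synthase of the Krebs cycle, gave 11925 and 13862 against 2430.3 and 2639.9 (log2 change 2.34, SE 0.17, limma adjusted p = 1.7e-05), Sdhb of complex II had a log2 change of 1.36 (adjusted p = 3.8e-04) and Uqcrc1 of complex III one of 1.28 (adjusted p = 6.2e-04). The value of Cs is that of its brightest probe set, and with the probe sets of the gene averaged its log2 change was 1.58. The mean log2 level of the 20 genes was 0.82 and 0.86 in FSP27-deficient WAT and -0.09 and 0.09 in wild-type WAT. Against this mean, 8 of the 9 members were lower in FSP27-deficient WAT with the arrays not overlapping, which also held for 81.9% of all genes tested, so that the count is close to that of any gene. Their differences from the mean of the 20 genes were -0.52 for Mfn2, -0.59 for Mff, -0.67 for Bnip3, -0.76 for Dnm1l, -0.81 for Oma1, -0.86 for Mfn1 and -0.90 for Fis1. For Mtfr1 they were -1.48 and -0.53 on the FSP27-deficient arrays. The exception was Opa1, at 0.05 and -0.11 in FSP27-deficient WAT and 0.14 and -0.14 in wild-type WAT, a mean difference of -0.03 with the genotypes overlapping. Each mean difference is the log2 change of the member minus 0.84, the change of the mean of the 20 genes. Since Opa1 had the largest change of the 9, its place nearest to 0 follows from that ranking and adds no support. Opa1 minus the mean of the 20 genes was -0.17 without wild-type replicate 2 and 0.10 without wild-type replicate 1.

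**Figure D4:**
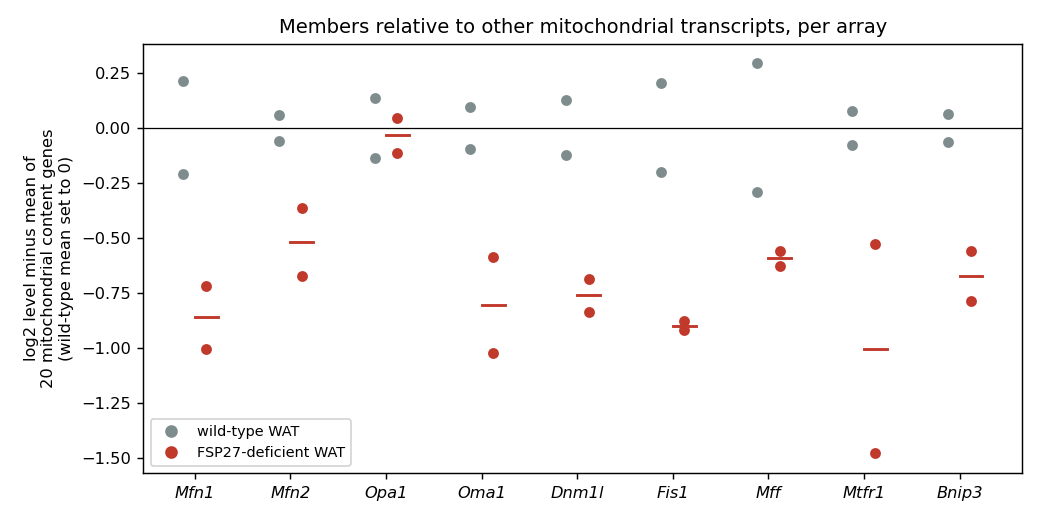
Log2 level of each member minus the mean log2 level of the 20 mitochondrial content genes on the same array, with the wild-type mean of each gene set to 0; points are arrays (grey wild-type, red FSP27-deficient) and red bars the FSP27-deficient means. Opa1 lies at 0 (mean -0.03) and the other 8 lie at -0.52 (Mfn2) or lower, where 81.9% of all genes tested lie below 0 with the arrays not overlapping. The place of Opa1 follows from its having the largest log2 change of these members.

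After the values were seen, the 20 genes were also split by membrane, since the mitofusins, FIS1, MFF and the BNIP3 proteins are proteins of the outer membrane. The 6 outer membrane genes of the list were porins (Vdac1, Vdac2 and Vdac3) and import receptors (Tomm20, Tomm22 and Tomm70a). They had 0 calls from limma and a median log2 change of 0.41, with a range of 0.14 to 0.52. At an unadjusted limma p under 0.05 were 3 of them, Vdac1, Vdac2 and Tomm70a, against 2157 of all 8522 genes tested. The 14 genes of the inner membrane, the space between the membranes and the matrix had 12 calls and a median of 1.09, and Tfam, the packaging factor of mitochondrial DNA, was the 1 of them below 0 (-0.28, not called). Per array the outer membrane genes were at 0.43 and 0.32 and the others at 0.99 and 1.09 in FSP27-deficient WAT, relative to wild-type. No test was made of this split. Inner membrane genes of the members and wider lists fell on both sides of it, with log2 changes of 0.04 for Oma1, 0.39 for Yme1l1, 0.43 for Spg7, 0.52 for Parl, 0.52 for Stoml2, 0.81 for Opa1, 0.81 for Phb2, 0.96 for Afg3l2 and 1.54 for Mtfp1. Outer membrane genes among them spread beyond the range of the 6 as well. Their gene-level changes included 0.80 for Miga2, 0.52 for Marchf5, 0.32 for Mfn2, 0.25 for Mff, 0.17 for Bnip3, -0.02 for Mfn1, -0.06 for Fis1 and -0.50 for Fundc1.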

How the data were processed

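Signals of 4 Affymetrix mouse arrays were used. The deposited values are intensities on a linear scale that the authors made with the Affymetrix GeneChip Operating Software (GCOS). Neither its version nor its scaling target is stated there. Genes were named through the annotation of the array, which gives 20380 probe sets 1 symbol, 691 several and 1555 none, beside 64 controls.

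Values were taken as log2(signal + 16), which understates changes of low signals. Each gene was read from its brightest probe set with 1 symbol, and genes that reached a mean of 100 were fitted with limma 3.58.1 in R 4.3.3 (trend on the signal, 12.1 total degrees of freedom, Benjamini-Hochberg over all genes, threshold 0.05). A second fit took every probe set. The steps were tested on simulated data. Two-sided tests were used throughout, and precision is limited by the number of arrays.

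The members and lists were chosen with earlier results of these data known. Named genes were the members, Cidec and, from each list, up to 3 called genes with the largest change; others were named to describe their list and were chosen after their values were seen. The alternatives tried were a pseudocount of 1 or 64, leaving out the filter or raising it to 200, quantile normalization, median centring, averaging the probe sets of a gene, a fit without the trend, the methods' t-test, the replicate number as a block and each array left out. Promoters came from RefSeq (GRCm38.p6). Mtfr1 and Bnip3l have no entry there.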

Additional observations from a re-analysis of the deposited data

How the results depend on the processing

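The call of Opa1 was lost in 8 of 14 alternatives, as was that of Gabarapl1. The count of members called higher, 1 as reported, was 0 without the filter, 0 with probe sets averaged per gene, 0 without the trend, 0 with the methods' t-test after adjustment and from 0 to 0 with each array left out. Without the trend limma called 1 of all genes (1860 at an unadjusted p under 0.05), and the methods' t-test called 0 (1309). Among member probe sets tested on their own, 0 as reported, 1 was called with a pseudocount of 64, 1 with a mean signal of at least 200, 1 after quantile normalization, 1 after centring and from 0 to 1 with each array left out. Genes of the 5 wider lists called higher, 8 as reported, were 5 without the filter, 4 with the mean of probe sets, 0 without the trend, 0 with the methods' t-test and 1 to 7 with an array left out. Mitochondrial content genes called higher, 12 as reported, were 0 without the trend and 0 with the methods' t-test. Opa1 minus the content mean, -0.03 as reported, was 0.20 after quantile normalization, -0.19 with probe sets averaged and -0.17 to 0.10 with an array left out, a comparison added after the data were seen.

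Arrays with the same replicate number did not deviate together (correlation 0.065 of their deviations), so the number was not taken as a pairing. With the replicate block 2 member probe sets were called, those of Opa1 and Bnip3l (adjusted p = 0.047 for Bnip3l from limma), and the genes called in all were 634 higher and 831 lower in place of 493 and 555. Quantile normalization gave 471 higher and 459 lower and centring 458 and 407. Mfn1 changed sign in 4 of 14 alternatives, to 0.10 and 0.05 under the scalings, Fis1 in 2, and Oma1, Mtfr1 and Bnip3 in 1 each, none of them past the threshold. A lone array of a genotype is taken to vary like the other pair.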
